A study of Mus musculus with 4 samples.

Results

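Livers of 2 lines of transgenic mice were compared, A34 and G37L, which carry the same number of copies of a mutated selenocysteine tRNA gene and differ in which base is changed. They are 2 of the 4 samples of the series and were chosen by their labels. A34 mice carry 2 copies of a Trsp transgene with the change T34A, and G37L mice carry 2 copies of one with the change A37G (the original base first, the position in the tRNA as the labels number it, then the base of the transgene). In the other samples, G37H mice carry 16 copies of the A37G transgene, and DTrsp mice are knocked out for Trsp. All were males of strain B6/FVB, 7 to 8 weeks old, fed enough selenium, and the liver RNA of each line was hybridised to 2-colour arrays against that of wild type males. The value deposited for a line is the authors' average over 4 animals (3 for G37H), and the labels add that the transgenic mice were taken after several passages. Whether the transgenic mice also kept their own Trsp, which promoter drove the transgene and whether each line came from 1 founder were not stated in the labels used.

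The selenocysteine tRNA reads the codon UGA and brings selenocysteine, the selenium-containing amino acid, into the growing protein. Position 34 is the first base of its anticodon and position 37 is the base next to the anticodon, and both are chemically modified in the mature tRNA. Selenoproteins are commonly divided into stress-related ones, such as glutathione peroxidase 1, whose synthesis depends on the fully modified tRNA, and housekeeping ones, such as thioredoxin reductases, which are made without the last modification at position 34. The liver is the main source of selenoprotein P in blood, of acute phase proteins, of cholesterol and of enzymes that conjugate foreign compounds.

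Each value is a log ratio of a line to wild type, taken as log2 and as mutant over wild type because the labels put the mutant in the red channel; neither is stated, so the direction is likely rather than known. If it were turned, every higher and lower here would change places. Values of probes with 1 gene were averaged into 9285 genes, and each line was centred on its median over genes. The difference A34 minus G37L is therefore positive where a gene was higher in A34. With 1 averaged value per line there is no spread between animals, so no test was possible, and differences are described by size against a threshold of 2-fold, a difference of 1 on the log2 scale. No probe is named for Trsp, which left no check of the mutated gene itself. In whole liver, fewer cells of a type and less RNA per cell cannot be told apart.

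Of the 9285 genes, 8.2% were at least 2-fold apart between A34 and G37L. There were 387 genes at least 2-fold higher in A34 (4.17%) and 374 at least 2-fold lower in A34 (4.03%). That even split depends on centring: without it the counts were 656 and 237, and centred on abundant transcripts they were 661 and 235, as the median of all genes then lay 0.18 and 0.19 higher. The values of G37L lay farther from wild type than those of A34. The SD over genes of the centred log2 ratio was 0.54 in G37L and 0.36 in A34, and 301 genes (3.24%) were at least 2-fold above wild type in G37L against 106 (1.14%) in A34. Below wild type by as much were 253 genes (2.72%) in G37L and 57 (0.614%) in A34. Noise in the values also adds to such spreads and counts, and its part was not tested. In the other lines 3.68% of genes were at least 2-fold above and 1.96% below wild type (G37H), and 1.85% above and 2.79% below (DTrsp).

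Most genes that separated the lines by 2-fold therefore differed through G37L or through small shifts in both. Among the 374 genes lower in A34, only G37L was 2-fold from wild type for 190, only A34 for 26, both in opposite directions for 9, and neither for 149. Among the 387 genes higher in A34, the same 4 counts were 154, 51, 4 and 178. The 374 genes had a median log2 ratio of −0.28 in A34 and 1.04 in G37L, with 0.47 in G37H and −0.03 in DTrsp. The 387 genes had medians of 0.38 in A34 and −0.87 in G37L, with −0.15 in G37H and −0.17 in DTrsp. Both sets were picked by A34 minus G37L, so the gap between their A34 and G37L medians follows from that choice. The wider spread of G37L also makes it more often the line that is 2-fold from wild type.

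**Figure D1:**
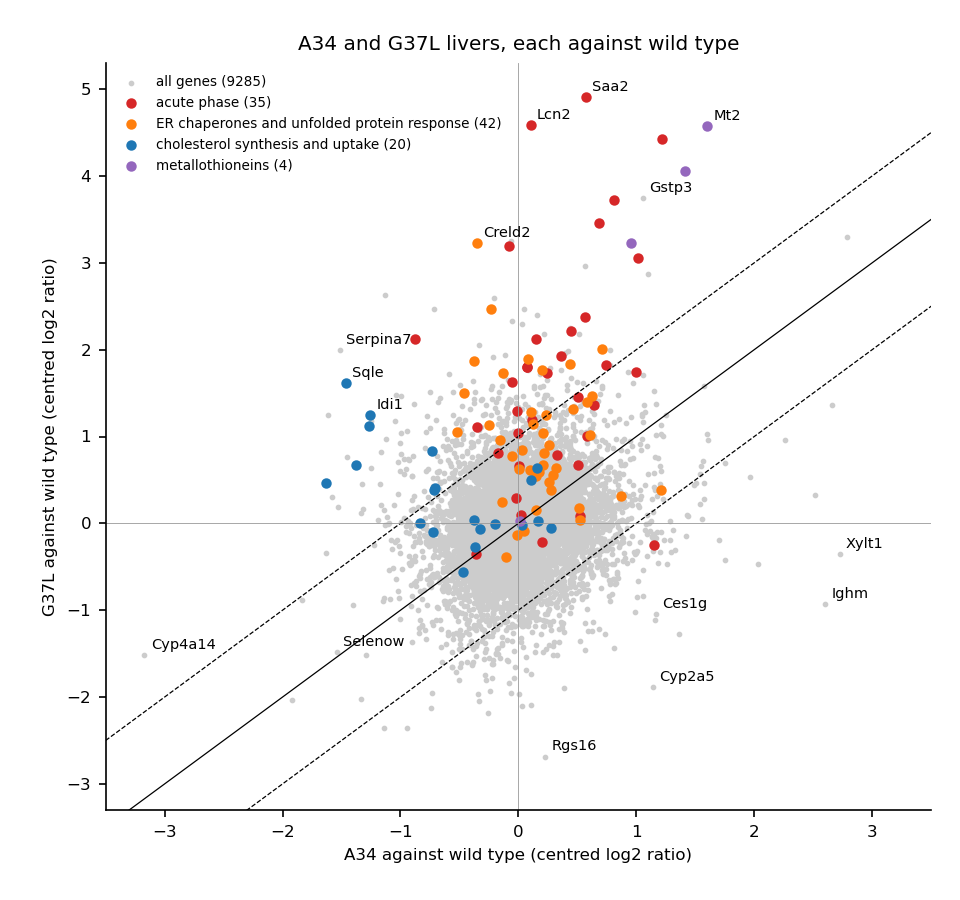
Centred log2 ratio to wild type of every gene in A34 (horizontal axis) and G37L (vertical axis), 1 point per gene, with 4 gene lists in colour; the solid line marks equal values and the dashed lines a 2-fold difference. Acute phase genes reach 4.90 in G37L (Saa2), and 5 cholesterol genes lie below −1 in A34.

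Acute phase genes, which code for the plasma proteins that the liver releases during inflammation, were the list with the most members at least 2-fold lower in A34. Of 35 measured members, 21 were at least 2-fold lower in A34 and 1 was at least 2-fold higher, against 4.03% and 4.17% of all genes. The median difference was −1.30, against 0.01 over all genes. The list's median log2 ratio to wild type was 0.24 in A34 and 1.63 in G37L, with 0.70 in G37H and 0.14 in DTrsp. In G37L 25 of the 35 were at least 2-fold above wild type, compared with 3 in A34, 11 in G37H and 0 in DTrsp. Over all genes those shares were 3.24% in G37L, 1.14% in A34, 3.68% in G37H and 1.85% in DTrsp.

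The serum amyloid A proteins, lipoprotein-bound markers of inflammation, were among the genes farthest apart. Saa2 had a log2 ratio of 0.57 in A34, 4.90 in G37L, 1.51 in G37H and 0.06 in DTrsp, a difference of −4.33 or 20.1-fold between the 2 lines. Saa1 stood at 1.22 in A34, 4.42 in G37L, 2.38 in G37H and −0.11 in DTrsp, a difference of −3.20. Saa3 stood at 0.81, 3.72, 1.23 and −0.32 in the same order, a difference of −2.91. All of them were highest in G37L and above wild type in A34 and G37H as well, while DTrsp lay near or slightly below wild type. Saa1 and Saa2 are near-identical in sequence, so their probes may read both.

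The gene with the largest difference of all was Lcn2, lipocalin 2, which binds bacterial iron carriers and is made by inflamed hepatocytes and by neutrophils. Its log2 ratio was 0.10 in A34, 4.59 in G37L, 0.78 in G37H and 0.91 in DTrsp, a difference of −4.48 or 22.3-fold. Fgl1, a liver-secreted relative of fibrinogen, stood at −0.08 in A34, 3.20 in G37L, 0.69 in G37H and 0.28 in DTrsp. For both genes A34 lay close to wild type and G37L far above every other line. A2m, a plasma protease inhibitor, had another order: −0.88 in A34, 2.13 in G37L, 3.35 in G37H and −1.53 in DTrsp, so that both lines with the changed base 37 lay above wild type and the others below it.

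The remaining members at least 2-fold apart included the serum amyloid P component Apcs (0.68 in A34, 3.46 in G37L), the protease inhibitor Serpina3n (1.01 and 3.06) and the orosomucoids Orm1 (0.45 and 2.21) and Orm2 (0.15 and 2.12). The fibrinogen chains Fga, Fgb and Fgg, which form blood clots, had differences of −1.48, −1.68 and −1.72. Haemopexin (Hpx), which binds free haem, differed by −1.08, C-reactive protein (Crp) by −1.07 and ceruloplasmin (Cp), the copper carrier of plasma, by −1.04. The exception was Pigr, the receptor that carries polymeric antibodies into bile, at 1.15 in A34 and −0.25 in G37L.

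Markers of immune cells differed in both directions, and their part in the acute phase difference was not tested. The 29 measured macrophage and Kupffer cell markers had a median difference of −0.25, with 2 at least 2-fold lower in A34 (4.03% of all genes were) and 0 higher, and medians of 0.41 in A34 and 0.70 in G37L. Those 2 were Fcgr1, a high-affinity antibody receptor (−1.62 in A34, 1.25 in G37L, 1.35 in G37H and −0.50 in DTrsp), and Cd5l, a protein secreted by macrophages (0.26, 1.31, 0.44 and 0.28). Of 5 neutrophil markers measured, 4 had a difference below 0 (48.9% of all genes had), and the median was −0.81. S100a8 and S100a9, which form calprotectin, differed by −0.87 and −0.81. Lcn2 and Csf3r differed by −4.48 and −0.24, and Mmp9, a matrix protease, by 1.29. The 7 measured lymphocyte markers had a median difference of 0.34. The 28 measured hepatocyte markers had medians of 0.33 in A34 and 0.50 in G37L.

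Promoters of Saa1 and Saa2 are shown because both carry a match to the spelling TTNNGNAAT, searched as a C/EBP site on both strands; that of Saa3 holds no such match. The stretches come from RefSeq on GRCm38.p6, 5′ to 3′ on the gene's strand, with the match in capitals. Saa1 is at chr7:46743130-46743188 on the minus strand and Saa2 at chr7:46751624-46751682 on the plus strand.
Saa1: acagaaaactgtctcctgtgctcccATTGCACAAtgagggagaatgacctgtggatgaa
Saa2: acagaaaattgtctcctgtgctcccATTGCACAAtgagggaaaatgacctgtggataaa
That spelling was found in 12 of the 33 promoters of acute phase genes (36.4%) and in 11.5% of all 32851 promoters of 300 bases. Of the 35 measured members 29 have a promoter entry; the 10 with a match had a median difference of −1.71 and the 19 without had −0.98. The spelling TTCNNNGAA, searched as a STAT site, was found in 8 of the 33 (24.2%) and in 8.30% of all promoters; members with and without it had median differences of −1.21 and −1.08. In all, 18 spellings were searched over 6 lists with the results known, so these matches are descriptions only.

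Chaperones and other proteins of the endoplasmic reticulum (ER) fold and quality-check secreted proteins. Of 42 measured members, 15 were at least 2-fold lower in A34 and 0 were higher, against 4.03% and 4.17% of all genes. The other 27 were within 2-fold, and 35 of the 42 had a difference below 0 (83.3%, against 48.9% of all genes). The median difference was −0.73. The list's medians were 0.16 in A34, 0.88 in G37L, 0.34 in G37H and 0.19 in DTrsp. At least 2-fold above wild type were 19 members in G37L and 1 member in each of A34, G37H and DTrsp. The shares of all genes were 3.24% in G37L, 1.14% in A34, 3.68% in G37H and 1.85% in DTrsp.

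Creld2, a secreted ER stress protein, had the largest difference of the list at −3.57, from −0.35 in A34 and 3.23 in G37L, with 0.73 in G37H and −0.12 in DTrsp. Manf, another protein released from the stressed ER, stood at −0.23 in A34, 2.47 in G37L, 0.50 in G37H and −0.06 in DTrsp. Hspa5 (BiP), the main Hsp70 chaperone of the ER, stood at 0.08, 1.89, 0.11 and 0.19 in that order. In all of these, G37L lay well above every other line. The same held for Syvn1, the ubiquitin ligase of ER-associated degradation (−0.38, 1.87, 0.38 and 0.18), and for the co-chaperone Dnajb9 (−0.46, 1.503, −0.18 and 0.50). Hyou1, a nucleotide exchange factor for BiP, was at −0.13 in A34, 1.73 in G37L and −0.52 in G37H, so that A34 lay above the line with 16 copies.

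Other members at least 2-fold lower in A34 covered several steps of secretion. Hsp90b1, the ER form of Hsp90, differed by −1.17, Dnajb11, a BiP co-chaperone, by −1.40 and Sdf2l1, part of an ER chaperone complex, by −1.31. Ostc of the oligosaccharyltransferase, Spcs2 of the signal peptidase and Sec61g of the translocon differed by −1.56, −1.38 and −1.01. Eif2ak3 (PERK), a sensor kinase of ER stress, was at −0.16 in A34 and 0.96 in G37L. The other sensors were closer, with Ern1 (IRE1) at 0.05 in A34 and −0.09 in G37L and Atf6 at 0.52 and 0.18. Herpud1, a membrane protein of ER-associated degradation, was the member highest in A34, at 1.21 against 0.38.

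**Figure D2:**
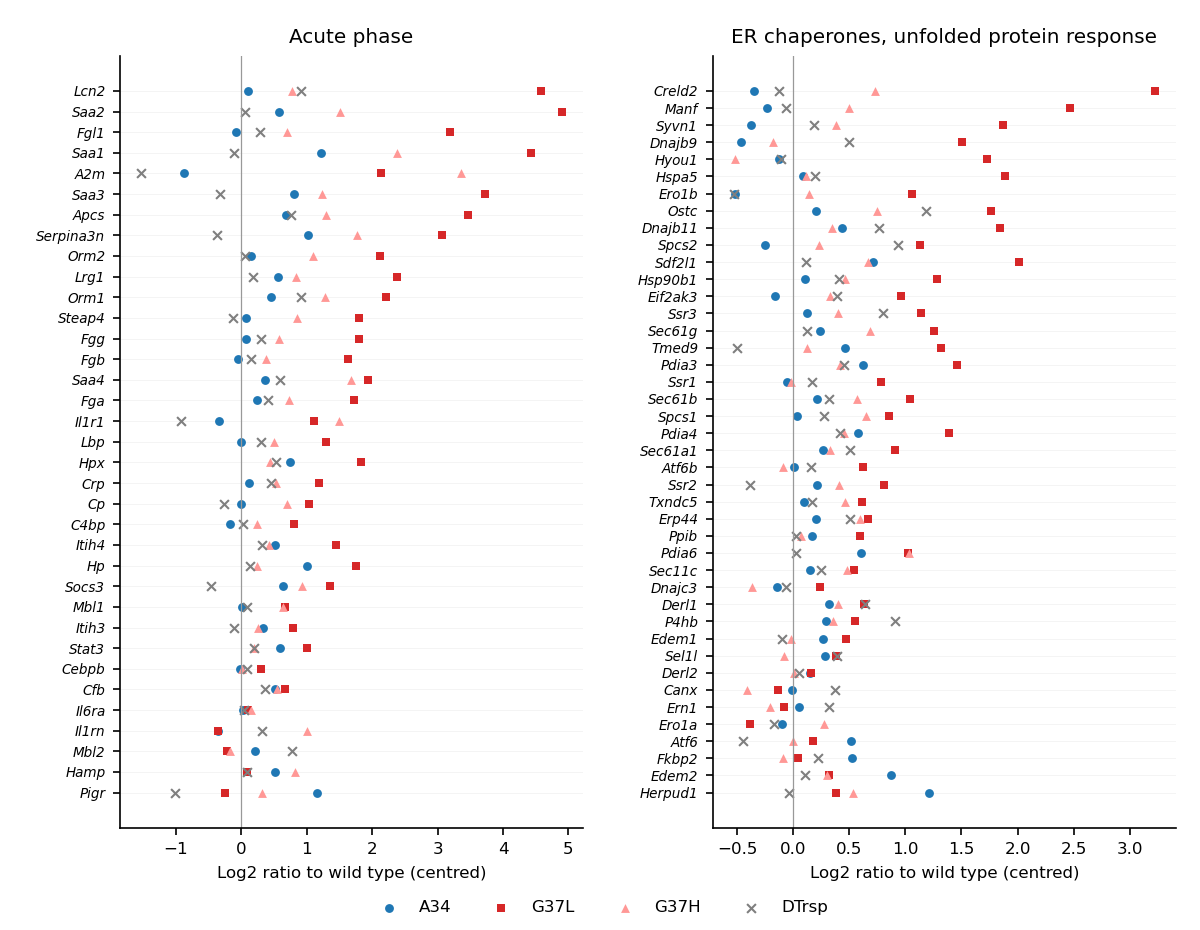
Centred log2 ratio to wild type (horizontal axis) of each measured acute phase gene (left, 35 genes) and ER gene (right, 42 genes) in the 4 lines, ordered by the difference between A34 and G37L; each symbol is 1 averaged value without an error. The G37L squares lie to the right of the A34 circles for 31 and 35 of the genes.

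The genes of the integrated stress response, which is set off by PERK and related kinases, had a median difference near 0. Of 14 measured, 1 was at least 2-fold higher in A34 (4.17% of all genes were) and 0 lower, and the median was 0.06. That gene was Ppp1r15a (GADD34), which ends the response, at 0.35 in A34, −0.87 in G37L, 0.89 in G37H and 0.44 in DTrsp. Atf4, its central transcription factor, was at 0.74 in A34 and 0.24 in G37L, and Atf5, a related factor, at −0.04 and 0.85. Of 20 cytosolic and mitochondrial heat shock genes, 3 were at least 2-fold lower in A34 (4.03% of all genes were) and 0 higher, and 17 were within 2-fold, with a median difference of −0.49. These were Hsp90aa1 (−0.14 in A34, 1.58 in G37L), the small chaperone Hspb1 (−0.97 and 0.74) and Hsph1, a co-factor of Hsp70 (0.03 and 1.32).

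ER promoters are shown because of the ER stress element, CCAAT and CCACG separated by 9 bases of any kind, which was found on either strand in 8 of 40 promoters of the list (20%) and in 39 of all 32851 (0.119%). The 8 genes, all measured, were Canx, Creld2, Dnajc3, Ero1b, Hsp90b1, Hspa5, Pdia6 and Syvn1. Of these, 4 are printed, with the matches in capitals and the bases upstream of the start only, from RefSeq on GRCm38.p6. Creld2 is at chr15:88819495-88819563, Syvn1 at chr19:6046507-6046575 and Hspa5 at chr2:34772000-34772068, all on the plus strand, and Hsp90b1 at chr10:86705508-86705681 on the minus strand.
Creld2: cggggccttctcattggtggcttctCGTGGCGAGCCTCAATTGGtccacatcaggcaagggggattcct
Syvn1: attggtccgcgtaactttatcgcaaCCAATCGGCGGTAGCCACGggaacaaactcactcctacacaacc
Hspa5: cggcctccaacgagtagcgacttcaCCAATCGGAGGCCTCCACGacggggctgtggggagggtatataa
Hsp90b1: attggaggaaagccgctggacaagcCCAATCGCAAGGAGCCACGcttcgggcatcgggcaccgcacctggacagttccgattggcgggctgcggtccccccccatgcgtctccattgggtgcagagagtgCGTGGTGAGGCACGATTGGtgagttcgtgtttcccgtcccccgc
Creld2 holds the element on the opposite strand, Syvn1 and Hspa5 on the gene's own strand, and Hsp90b1 holds 2, 1 on each. The 8 genes with the element had a median difference of −1.37, with 5 at least 2-fold lower in A34. The 26 measured genes with a promoter entry and no match had a median of −0.72, and 7 of them were 2-fold lower. Creld2, Syvn1 and Hspa5 are thus among the genes farthest apart, whereas Canx, calnexin, stood at −0.01 in A34 and −0.14 in G37L with the same spelling in its promoter.

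Several enzymes of cholesterol synthesis lay below wild type in A34 and above it in G37L. Of 20 measured genes, 8 were at least 2-fold lower in A34 and 0 were higher, against 4.03% and 4.17% of all genes. The median difference was −0.55. The medians were −0.59 in A34, 0.21 in G37L, −0.06 in G37H and −0.01 in DTrsp. In A34 5 genes were at least 2-fold below wild type, compared with 0 in each of the other lines. Over all genes 0.614% were in A34, 2.72% in G37L, 1.96% in G37H and 2.79% in DTrsp.

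Sqle, squalene epoxidase, which commits squalene to sterols, stood at −1.46 in A34, 1.62 in G37L, 0.14 in G37H and −0.50 in DTrsp, a difference of −3.07. Its 2 probes gave −3.39 and −2.76. Idi1, which isomerises the isoprenoid building block, stood at −1.26, 1.25, 0.22 and 0.76 in the same order, and Cyp51, the lanosterol demethylase, at −1.26, 1.12, 0.18 and −0.03. These 3 genes were at least 2-fold below wild type in A34 and at least 2-fold above it in G37L, while G37H lay near wild type. Hmgcs1, which makes HMG-CoA for the pathway, was at −1.63 in A34 and 0.47 in G37L, and Msmo1, a sterol methyl oxidase, at −1.37 and 0.67. Mvd, which makes isopentenyl pyrophosphate, differed by −1.56, Dhcr7, the last reductase, by −1.11 and Hsd17b7 by −1.10. The regulators were closer: Srebf2, the transcription factor of the pathway, was at −0.37 in A34 and 0.04 in G37L, and Insig1, which holds it back, at 0.03 and −0.02.

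Fatty acid and triglyceride genes diverged within their list. Of 31 measured, 5 were at least 2-fold lower in A34 and 2 higher, against 4.03% and 4.17% of all genes. The median difference was −0.23. Elovl6, which lengthens saturated fatty acids, was at −1.58 in A34 and 0.30 in G37L, and Cidec, a lipid droplet protein, at −1.12 and 0.97. Insig2, the other brake on sterol synthesis, was at −0.33 in A34, 2.05 in G37L and 1.71 in G37H. In the opposite direction, Gpam, which starts triglyceride synthesis, was at 1.16 in A34, −1.11 in G37L, −0.81 in G37H and −0.14 in DTrsp. Srebf1, the factor that drives fatty acid synthesis, was at 0.07 in A34, −1.68 in G37L, −1.56 in G37H and −0.97 in DTrsp. For Insig2, Gpam and Srebf1 both lines with the changed base 37 lay on the same side of A34.

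Fatty acid oxidation genes had 1 of 33 members at least 2-fold higher in A34 and 1 lower, shares no larger than the 4.17% and 4.03% of all genes, with a median difference of 0.14. Cyp4a14, a target of PPARA that hydroxylates fatty acids, was far below wild type in A34 (−3.17), less so in G37L (−1.52) and G37H (−1.21), and above it in DTrsp (1.94). Hadh, a mitochondrial beta-oxidation enzyme, was at 0.98 in A34 and −0.33 in G37L. The 20 measured genes of glucose metabolism had a median difference of 0.07. At least 2-fold lower in A34 were 3 of them (15%) and higher 0, against 4.03% and 4.17% of all genes. They were Igfbp1, a binding protein for insulin-like growth factors (−1.46 in A34, 0.76 in G37L, −0.74 in G37H and 0.96 in DTrsp), Pfkfb3, which promotes glycolysis (−0.91, 0.27, 1.17 and −1.22), and the lactate dehydrogenase Ldha (0.07, 1.16, 0.15 and 0.35).

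Metallothioneins, small proteins that bind zinc and copper, were above wild type in all lines apart from Mt3, and least so in A34. Mt2 stood at 1.60 in A34, 4.57 in G37L, 4.54 in G37H and 4.05 in DTrsp, and Mt1 at 1.41, 4.06, 3.27 and 2.58. Mt4 followed at 0.95, 3.23, 3.43 and 2.64, and Mt3 was near wild type at 0.02 in A34 and 0.03 in G37L. Of the 4 genes, 3 were thus at least 2-fold lower in A34 and 0 were higher, against 4.03% and 4.17% of all genes. Mt1, Mt2 and Mt4 are similar in sequence, so their probes may read one another's transcripts.

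Genes of conjugation and detoxification, many of them targets of the oxidative stress factor NRF2, leaned the other way. Of 72 measured, 9 (12.5%) were at least 2-fold higher in A34 and 4 (5.56%) lower, against 4.17% and 4.03% of all genes. A difference above 0 was seen for 54, against 4749 of all 9285 genes, and the median difference was 0.39. The medians were 0.15 in A34, −0.20 in G37L, 0.11 in G37H and 0.90 in DTrsp, so that neither of the 2 lines reached the level of the knockout.

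Cyp2a5, a cytochrome P450 that oxidises coumarin and nicotine, stood at 1.14 in A34, −1.89 in G37L, 0.18 in G37H and 2.49 in DTrsp, a difference of 3.03. Its 3 probes gave differences from 2.54 to 3.38, and a further probe shared with Cyp2a4 gave 3.60. Cyp2a4, a steroid hydroxylase of nearly the same sequence, was at 0.77 in A34 and −0.70 in G37L. The carboxylesterase Ces1g, which cleaves lipid esters, stood at 1.17 in A34, −1.04 in G37L, 1.71 in G37H and 2.73 in DTrsp, and Ces1d, a related esterase, at 0.38, −1.89, 0.64 and 0.43. For all 4 of these genes G37L was the lowest line, with G37H above wild type. Others higher in A34 were the glucuronosyltransferases Ugt1a1 (1.14 in A34, −0.17 in G37L) and Ugt1a6a (1.31 and −0.08) and the glutathione transferase Gsta1 (−0.06 and −1.20).

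The 4 members at least 2-fold lower in A34 included Gstp3, a glutathione transferase, at 1.05 in A34, 3.74 in G37L, 5.01 in G37H and 0.42 in DTrsp. Ugt2b38, a glucuronosyltransferase, stood at 1.10 in A34, 2.87 in G37L, 1.19 in G37H and −0.998 in DTrsp. Pgd, a pentose phosphate enzyme that makes NADPH, differed by −1.27. Ugt1a9 differed by −1.20, with its 3 probes ranging from −2.23 to 0.06. Among other cytochromes P450, 2 of 30 were at least 2-fold higher in A34, the Cyp2a pair above, and 3 lower. These shares were 6.67% and 10%, against 4.17% and 4.03% of all genes. Cyp2b10, a target of the receptor CAR, was at −1.04 in A34, 1.48 in G37L, 2.95 in G37H and 0.38 in DTrsp. Cyp2c39 was at −0.56, 1.51, 0.60 and 0.69, and Cyp2c70, which hydroxylates bile acids, at 0.50, 1.63, 1.71 and 0.35.

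**Figure D3:**
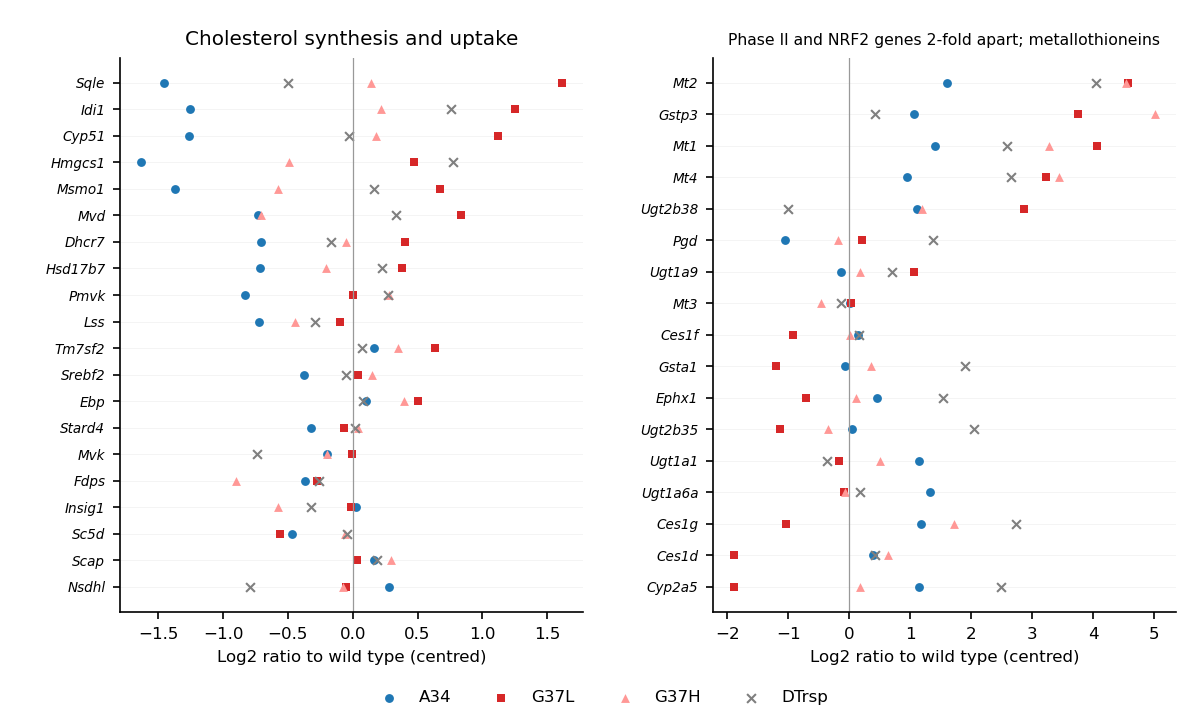
Centred log2 ratio to wild type (horizontal axis) in the 4 lines, for the 20 cholesterol genes (left) and for the conjugation genes at least 2-fold apart between A34 and G37L together with the 4 metallothioneins (right); each symbol is 1 averaged value without an error. Sqle runs from −1.46 in A34 to 1.62 in G37L, and Cyp2a5 from 1.14 to −1.89.

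Among enzymes that break down amino acids and make urea, 7 of 45 measured were at least 2-fold higher in A34 and 0 lower, against 4.17% and 4.03% of all genes, and 38 were within 2-fold. The list had a median difference of 0.37, with medians of 0.20 in A34, −0.26 in G37L, −0.01 in G37H and 0.28 in DTrsp. Asl, the argininosuccinate lyase of the urea cycle, was at 0.70 in A34 and −0.74 in G37L. Cbs and Cth, which turn homocysteine into cysteine, were both higher in A34, at 0.63 against −0.59 and at −1.14 against −2.36. Cth was thus below wild type in both lines; it was at −2.24 in G37H and 0.01 in DTrsp. Amdhd1 of histidine breakdown, the tyrosine enzyme Hpd and the proline dehydrogenase Prodh differed by 1.26, 1.17 and 1.17.

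Circadian clock genes and their outputs follow the time of day and feeding. Of 21 measured, 4 were at least 2-fold higher in A34 and 0 lower, against 4.17% and 4.03% of all genes. The other 17 were within 2-fold, and the median difference was 0.48. Rgs16, a feeding-dependent regulator of G protein signalling, was at 0.23 in A34, −2.69 in G37L, −2.00 in G37H and −0.17 in DTrsp. Upp2, a uridine phosphorylase, differed by 1.63, the clock repressor Cry2 by 1.28 and the cell cycle kinase Wee1 by 1.27. The hour at which the livers were taken was not stated in the labels used.

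Sterol and bile acid transport showed smaller differences. Abcg5 and Abcg8, which together pump cholesterol into bile, were at 0.32 and 0.19 in A34 and at −0.74 and −1.27 in G37L. Akr1d1, a reductase of bile acid synthesis, was at −0.22 in A34 and −1.62 in G37L. With these, 3 of 23 genes of the list were at least 2-fold higher in A34, and 1, Cyp2c70, was lower. The shares over all genes were 4.17% and 4.03%, and the list's median difference was 0.25.

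**Figure D4:**
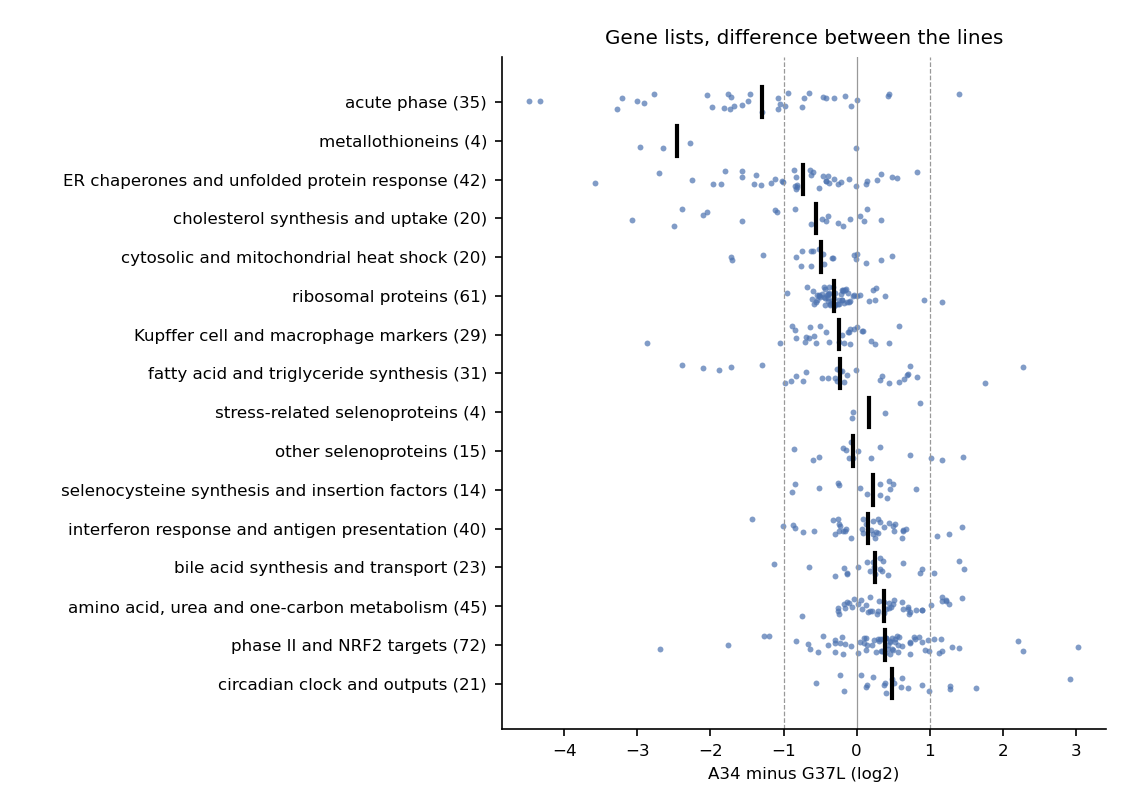
Difference A34 minus G37L on the log2 scale (horizontal axis) for the measured members of 16 gene lists, 1 point per gene with the number of genes in brackets; the thick bars are medians, and the dashed lines mark a 2-fold difference. The medians run from −2.46 for metallothioneins to 0.48 for circadian genes.

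Selenoproteins are the products that depend on the mutated tRNA, and the arrays measured their messenger RNA. None of the 4 measured stress-related members was at least 2-fold apart. Over all genes 8.2% were, so a count of 0 among 4 is near that share. Selenow, a small muscle and brain selenoprotein, was low in every line, with log2 ratios of −1.54 in A34, −1.48 in G37L, −1.48 in G37H and −1.18 in DTrsp. Gpx1, the main cytosolic glutathione peroxidase, was at −0.91, −0.84, −0.45 and −0.71. For both, A34 and G37L lay within 0.07 of each other and well below wild type. Gpx3, the plasma glutathione peroxidase, was at −0.47 in A34 and −0.85 in G37L. Msrb1, which reduces oxidised methionine, was at 0.70 in A34, −0.17 in G37L, −0.58 in G37H and −0.43 in DTrsp, the only one of the 4 above wild type in A34. The median difference of the 4 was 0.16, and it changed sign to −0.11 when G37L was scaled to the spread of A34.

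Of the 15 other selenoproteins, 3 were at least 2-fold higher in A34 (4.17% of all genes were) and 0 lower, with a median difference of −0.05 whose sign turned under each of the 3 other scalings. Selenoo, a mitochondrial enzyme that attaches AMP to proteins, was at 0.81 in A34, −0.64 in G37L, −0.35 in G37H and −0.37 in DTrsp. Txnrd2, the mitochondrial thioredoxin reductase, was near wild type in A34 (−0.14) and low in G37L (−1.31), G37H (−1.41) and DTrsp (−1.01). Sephs2, which makes the selenium donor for selenocysteine, was at 1.14 in A34, 0.13 in G37L, −0.14 in G37H and 0.93 in DTrsp. Each of these has 1 probe, and for Selenoo and Txnrd2 A34 stood apart from all the other lines.

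Of the few selenoproteins that reside in the ER, none was 2-fold apart, which is near the 8.2% of all genes. Selenos, part of the retrotranslocation complex, was at −0.24 in A34 and 0.62 in G37L, Selenok, a membrane protein of the ER, at 0.12 and 0.72, and Selenof, which binds a glycoprotein folding sensor, at −0.35 and 0.17. Against G37H the differences of Selenos and Selenok were 0.27 and 0.22, of the opposite sign. Selenon and Dio2, which also reside in the ER membrane, differed between A34 and G37L by only −0.05 and 0.01. Among the rest, Selenop, the selenium carrier of plasma, was at 0.31 in A34 and 0.45 in G37L, Gpx4, which protects membrane lipids, at 0.50 and 0.19, and the cytosolic thioredoxin reductase Txnrd1 at −0.14 and −0.06. Dio1, the thyroid hormone deiodinase of liver, was at 0.69 in A34, −0.04 in G37L, −0.39 in G37H and −0.83 in DTrsp. Gpx2, Selenoi and Selenov differed by −0.19, −0.11 and 0.20.

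None of the 14 measured factors that make or insert selenocysteine was 2-fold apart. Over all genes 8.2% were, so a count of 0 among 14 is near that share. The median difference of the factors was 0.23. Sephs1, a relative of Sephs2, was lower in A34 (0.36) than in G37L (1.25) and G37H (1.20). Ncl, nucleolin, which binds selenoprotein messages, was at −0.22 in A34 and −1.04 in G37L. Secisbp2, the protein that recruits the tRNA to selenoprotein messages, was at 0.07 and −0.43. Pstk and Sepsecs, which convert serine on the tRNA into selenocysteine, differed by 0.44 and 0.32. Trit1, which modifies base 37 of several tRNAs, was at 0.00 in A34, −0.05 in G37L and −1.03 in DTrsp. The remaining factors, Elavl1, Ssb, Rpl30, Eif4a3, Secisbp2l, Sars, Scly and Trnau1ap, ranged from −0.85 (Elavl1) to 0.45 (Trnau1ap).

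**Figure D5:**
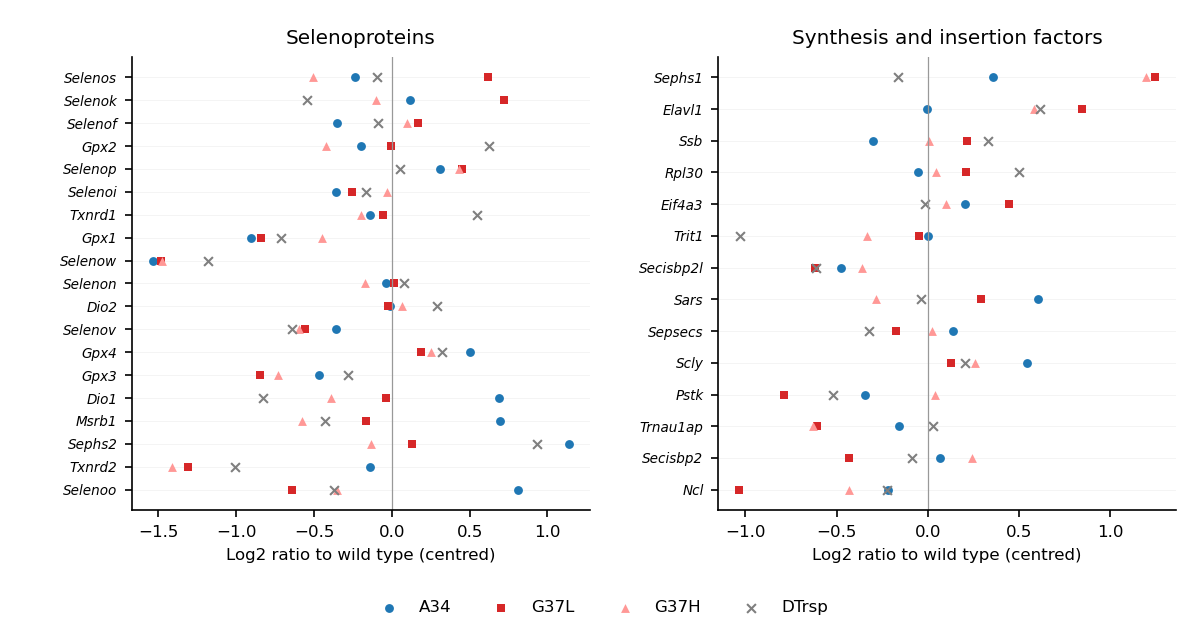
Centred log2 ratio to wild type (horizontal axis) of the 19 measured selenoproteins (left) and the 14 synthesis and insertion factors (right) in the 4 lines, ordered by the difference between A34 and G37L; each symbol is 1 averaged value without an error. Selenow lies between −1.54 and −1.18 in all 4 lines, and Txnrd2 is near wild type in A34 alone.

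Ighm, the heavy chain of IgM, had the highest difference of all genes at 3.53, from 2.60 in A34, −0.93 in G37L, −0.57 in G37H and −0.21 in DTrsp. Igkv3-2, a variable segment of the light chain, was at 2.03 in A34 and −0.47 in G37L, while the constant segment Igkc was at −0.22 and −0.56. All of these antibody genes were higher in A34, the constant segment by 0.34. Other lymphocyte markers differed less or in the other direction: Cd2 and Cd3e of T cells by 0.80 and 0.75, and Ly6d of B cells by −2.24. Of 40 interferon and antigen presentation genes, 3 were at least 2-fold higher in A34 and 2 lower, near the 4.17% and 4.03% of all genes. Igtp and Irgm2, GTPases that defend against parasites, and the peptide transporter Tap1 differed by 1.44, 1.10 and 1.26, whereas the chemokine Cxcl10 and Ifi27 differed by −1.43 and −1.005.

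Coagulation factors F7 and F12 and the plasmin inhibitor Serpinf2 were also higher in A34, by 1.46, 1.27 and 1.04. The 2 probes of F12 gave 0.40 and 2.15 and those of Serpinf2 0.02 and 2.07, so 1 probe carries each of these differences. The 3 genes were at 1.14, 1.15 and 1.51 in A34 and at −0.32, −0.13 and 0.46 in G37L. Hc, complement component C5, was lower by 1.07 at −0.67 against 0.39. Of the 36 complement and coagulation genes, 3 were thus higher and 1 was lower by at least 2-fold, near the 4.17% and 4.03% of all genes, with a median difference of 0.07.

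Several genes outside the lists were far apart. Xylt1, which starts the sugar chains of proteoglycans, stood at 2.72 in A34, −0.35 in G37L, 1.47 in G37H and 2.30 in DTrsp. Serpina7, the thyroxine-binding globulin of plasma, stood at −1.51 in A34, 1.996 in G37L, −1.27 in G37H and 1.54 in DTrsp. Afmid, a formamidase of tryptophan breakdown, was at 0.81 in A34, −1.44 in G37L, −0.46 in G37H and −0.14 in DTrsp. For Xylt1 and Serpina7 the 2 lines with the changed base 37 lay far apart from each other. Afmid has 6 probes, with differences from 1.57 to 2.54. Rad51b, a DNA repair protein, had 2 probes with differences of −3.93 and −2.44. Alk, a receptor tyrosine kinase, was at −0.06 in A34 and 3.25 in G37L, and Dchs1, a large cadherin, at 0.10 and −2.10.

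Probes give the only check on single values. In genes with 2 probes, 90 probes were at least 2-fold lower in A34. The partner probe was too for 26 (28.9%) and lay on the same side of 0 for 78 (86.7%). For probes at least 2-fold higher in A34, the partner was too for 18 of 191 (9.42%) and lay on the same side for 132 (69.1%). Probes were counted, so a gene with both probes past 2-fold enters 2 times. With the centring used for genes, 682 of all 13047 named probes were at least 2-fold higher in A34 and 513 lower. The SD between 2 probes of a gene was 0.47 for the difference. Most list members named have 1 probe. The decimals of Ighm, Igkv3-2, Serpina7, Fndc9 and Tmco4 show no averaging of arrays in A34 or in G37L, so these values may rest on 1 array each. The same holds for Msmo1, Ly6d, S100a8, Igtp, Myc and Egr1, among others. An average of several arrays can also end without such decimals, so they do not show that 1 array was used.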

How the data were processed

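Liver RNA (15 µg per labelling) of each line, in Cy5 per the labels, was hybridised against wild type RNA in Cy3, and the authors deposited 1 averaged log ratio per probe and line, read here as log2. Background correction, normalization, dye swaps and the log base are not stated in the labels or the file, and signal intensities were not used, so depth over background is unknown and the number of animals limits the precision. Of 15478 probes, 12984 were named through the platform annotation and 63 by their own symbol; 110 with several genes and 2321 unlisted ones were left out of gene values. Probes were averaged per gene and columns centred with Python 3.11.15 and pandas 2.3.3, and the steps were checked on simulated data. The 40 gene lists hold 1175 genes, 907 of them measured; the members and lists were chosen with earlier results of these data known. Genes named are the 15 highest and 15 lowest differences, all measured selenoproteins and factors, and up to 6 members per list with the largest difference. Further list members, and the promoters printed, were chosen after their values were seen. Alternatives changed the centring, scale, probe summary, threshold, log base and line with the A37G change.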

Additional observations from a re-analysis of the deposited data

Results flagged for a closer look

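In 13 genes A34 and G37L were each at least 2-fold from wild type in opposite directions, and 11 of them are among the genes named; the difference was not tested, since each line has 1 averaged value. Lower in A34 were Fndc9 (difference −3.76), a membrane protein, Serpina7 (−3.51), Sqle (−3.07), Fcgr1 (−2.86), Cyp2b10 (−2.52), Idi1 (−2.50) and Cyp51 (−2.38). Higher in A34 were Ces1g (2.21), Gpam (2.27), Tmco4 (2.63), a transmembrane protein, and Cyp2a5 (3.03). Fndc9, Serpina7 and Tmco4 have 1 probe each, and their decimals show no average over more than 1 array in A34 or in G37L.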

How the results depend on the processing

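No paired analysis was possible because each line has 1 averaged value. Against 387 genes higher and 374 lower in A34, the counts were 656 and 237 uncentred (73.5% higher, against 50.9%), 661 and 235 centred on abundant transcripts (73.8%), 185 and 193 with G37L scaled to the spread of A34, 169 and 152 among 4783 genes whose decimals show an average over more than 1 array, 1247 and 1140 at 1.5-fold, 57 and 110 at 3-fold (34.1%) and 932 and 832 read as natural logs. Counting 13047 probes singly gave 700 higher and 494 lower (58.6% higher). Against G37H instead of G37L, 282 genes were higher and 362 lower in A34 (43.8% higher). Of the 40 list medians, 22 kept their sign under all alternatives tried, among them acute phase, ER, cholesterol, metallothionein, conjugation, amino acid and circadian lists. With G37H in place of G37L, the median was −0.48 for acute phase and −0.066 for ER genes. For conjugation genes it was 0.03, against 0.39 with G37L. The median of the cytochromes P450 turned sign, from 0.30 with G37L to −0.29 with G37H. The cholesterol median was −1.09 over 10 genes with 1 probe, and the metallothionein median −1.33 with G37L scaled and −1.98 as a mean. Against G37H, 43 of the 251 genes the naming rule took turned sign, 8 of them at least 2-fold apart in the main comparison: Hyou1 0.39, Ppp1r15a −0.54, Mmp9 −0.086, Id1 −0.14, Loxl2 −1.57, Rnf186 −0.66, Ces1g −0.54 and Ces1d −0.26; the cause was not tested.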

Other observations

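Of 61 ribosomal protein genes, 52 had a difference below 0 (85.2%, against 48.9% of all genes), with a median of −0.31. At least 2-fold higher in A34 was 1 (4.17% of all genes were), Rplp0, at −0.27 against −1.45 in G37L. Without centring that median was −0.13, and centred on abundant transcripts it was −0.12. The abundant set is made of this list and the lists named next, so centring on it moves their medians towards 0 by construction. Other abundant transcripts leaned the same way, with medians of −0.20 for reference housekeeping genes, −0.25 for hepatocyte markers and −0.16 for oxidative phosphorylation. Without centring these medians were −0.01, −0.07 and 0.02. Centred on abundant transcripts they were −0.009, −0.06 and 0.02. Genes of growth and early response differed singly. Myc, a growth-promoting transcription factor, was at −0.75 in A34, 1.10 in G37L, 2.26 in G37H and 1.40 in DTrsp, and Egr1, an immediate early factor, at 2.66, 1.36, −0.28 and 0.65. Scara5, a ferritin receptor, was at −0.22 in A34, 1.92 in G37L, 1.70 in G37H and −2.47 in DTrsp. Hsd3b5, a male-biased steroid enzyme of liver, was at 0.46 in A34, −0.88 in G37L, −0.64 in G37H and −3.17 in DTrsp.

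Decimals of the deposited values tell where an average over several arrays is visible. Among genes with 1 probe, 30.5% showed no such average in A34 and 38.5% showed none in G37L. Neither line showed one for 871 of 6871 (12.7%). The counts were 50 of 334 for those at least 2-fold higher in A34, 79 of 344 for those at least 2-fold lower and 742 of 6193 for those within 2-fold. Of 2431 probes without a single gene name, 11.6% were at least 2-fold apart, 118 higher and 164 lower in A34. Of the 13047 named probes 9.16% were, 682 higher and 513 lower.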
